A study of Mus musculus with 6 samples.

Results

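Cadherin and protocadherin genes were examined in mouse embryonic fibroblasts (MEFs) with and without a transfected Fbxl10 cDNA. The genes were chosen by symbol, as Cdh followed by digits or any symbol that starts with Pcdh. They comprised 57 of the 19936 genes measured with a probe set of their own. Of these 57, 18 were classical cadherins (types I and II), 5 were other cadherins, 22 were clustered protocadherins and 12 were non-clustered protocadherins.

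Cadherins are calcium-dependent adhesion proteins whose extracellular repeats bind cadherins on the neighbouring cell. The tail of a classical cadherin binds catenins, which link it to actin, and the mix of cadherins on a cell helps set which cells it adheres to. N-cadherin rather than E-cadherin is typical of mesenchymal cells such as fibroblasts. Clustered protocadherins come from arrays of variable exons, each with a promoter of its own. They are best known from neurons, where each cell uses a different selection of them. Non-clustered protocadherins are single genes, many of them active in the developing brain.

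RNA came from a stable MEF-derived Tet-off line, in which a tetracycline-regulated transactivator controls transgenes. The 3 control arrays held RNA of the untransfected line. The 3 HA-Fbxl10 arrays held RNA of the same line after transfection with plasmids for HA-tagged Fbxl10 and for hygromycin resistance, from clones picked for expression of the tagged protein. No empty-vector group was among the samples, so Fbxl10, transfection and clone selection cannot be told apart as sources of any difference. The RNA samples are called independent, but separate clones or cultures are not stated, so p-values reflect only how these samples vary, and that variation may be technical.

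Fbxl10, now Kdm2b, encodes a histone demethylase that binds CpG-rich DNA. Its log2 level was 7.38, 7.45 and 7.28 in the control replicates and 9.77, 9.75 and 9.58 in the HA-Fbxl10 replicates, higher in each as their label states. Of 12 fibroblast markers, 8 lay above the median of all genes, among them Col1a1, Col1a2, Vim and Fn1, while Dcn, Thy1, Fap and Lum lay below it. Array medians over all probe sets were 4.69 to 4.79. With 3 arrays a group, their number limits precision.

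Levels are log2 values made by the authors with RMA. A difference is the HA-Fbxl10 mean minus the control mean on that scale, so a difference of 1 is a doubling. Genes past a limma adjusted p of 0.05, over all genes, are said to have risen or fallen. The median gene had a mean level of 5.36 and the lower quartile was 3.75. Values near or below the lower quartile do not tell signal from background, and RMA compresses differences there. Levels of different probe sets are not compared with each other.

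The upstream sequences of 3 genes that changed are shown first, because Fbxl10 binds CpG-rich DNA and these are the changed genes with an entry in the RefSeq promoter table (GRCm38.p6), which matched 22 of the 57. Each run is the 250 bases before the annotated start, 5′ to 3′ on the gene's strand. Capitals mark CTGATTGGCT or its reverse complement AGCCAATCAG, the longest run present in all 3 windows on either strand, which was searched for after the windows had been seen. It holds a CCAAT box.
Pcdh18: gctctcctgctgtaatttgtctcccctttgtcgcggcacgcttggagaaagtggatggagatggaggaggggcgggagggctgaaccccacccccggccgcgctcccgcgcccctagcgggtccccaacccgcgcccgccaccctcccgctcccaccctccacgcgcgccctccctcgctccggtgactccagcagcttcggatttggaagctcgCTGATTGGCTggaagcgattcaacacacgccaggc
Pcdh19: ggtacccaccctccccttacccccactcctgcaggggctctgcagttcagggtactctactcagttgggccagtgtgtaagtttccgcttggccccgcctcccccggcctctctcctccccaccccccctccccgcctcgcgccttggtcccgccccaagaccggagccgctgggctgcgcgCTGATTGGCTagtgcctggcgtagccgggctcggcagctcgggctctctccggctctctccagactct
Cdh18: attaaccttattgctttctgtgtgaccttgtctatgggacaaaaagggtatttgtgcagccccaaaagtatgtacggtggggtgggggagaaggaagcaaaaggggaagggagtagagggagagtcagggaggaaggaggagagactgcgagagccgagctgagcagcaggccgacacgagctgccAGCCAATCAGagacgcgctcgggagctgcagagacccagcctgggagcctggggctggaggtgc
The windows lie at chr3:49757317-49757566 on the minus strand (Pcdh18), chrX:133688994-133689243 on the minus strand (Pcdh19) and chr15:23036213-23036462 on the plus strand (Cdh18). The shared run began 35, 68 and 64 bases before the start of Pcdh18, Pcdh19 and Cdh18. It occurred in 1.37% of all 32851 windows of the table on either strand, and CCAAT alone, searched on both strands, in 33.8%. Among the 19 matched genes of the family that did not pass the test, 1, Cdh9, held the run and 11 held CCAAT. The window of Pcdh18 held 23 CG dinucleotides, that of Pcdh19 held 16 and that of Cdh18 held 8, against a median of 6 over all windows, 92.1% of which held at least 1. The 19 uncalled genes ranged from 0 to 30 with a median of 7. The run thus stood before genes that fell, a gene that rose and a gene that did not pass the test.

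Of the 57 genes, 9 rose and 2 fell, which is 19.3%. Over all genes tested, 21.1% passed the same threshold, 10.5% higher and 10.6% lower, so the share in the family was near that of all genes. At an unadjusted p under 0.05 limma had 31.3% of all genes, 15.4% higher and 15.9% lower. The 9 that rose were the classical cadherins Cdh2, Cdh18, Cdh11 and Cdh3, the T-cadherin gene Cdh13 and the beta protocadherins Pcdhb22, Pcdhb17, Pcdhb19 and Pcdhb16. The 2 that fell were the non-clustered protocadherins Pcdh19 and Pcdh18. Cdh2 and Cdh13 were the only members past the threshold with a change of at least 2-fold, against 73 genes higher and 118 lower by as much over all genes. Of the 57 genes, 46 had a mean level at or below the median gene, 19 of them below the lower quartile. Of the 46, Pcdhb17 and Pcdhb19 passed the test, where 5.21% of all genes at or below the median gene did. Of the 11 above the median gene 9 passed the test, against a background of 37%, and since the mean covers both groups it is not independent of the difference. The groups did not overlap for 16 members, 12 higher and 4 lower, against 36% of all genes (17.9% higher and 18.1% lower). The median difference was 0.02 in the family and -0.00427 over all genes.

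**Figure D1:**
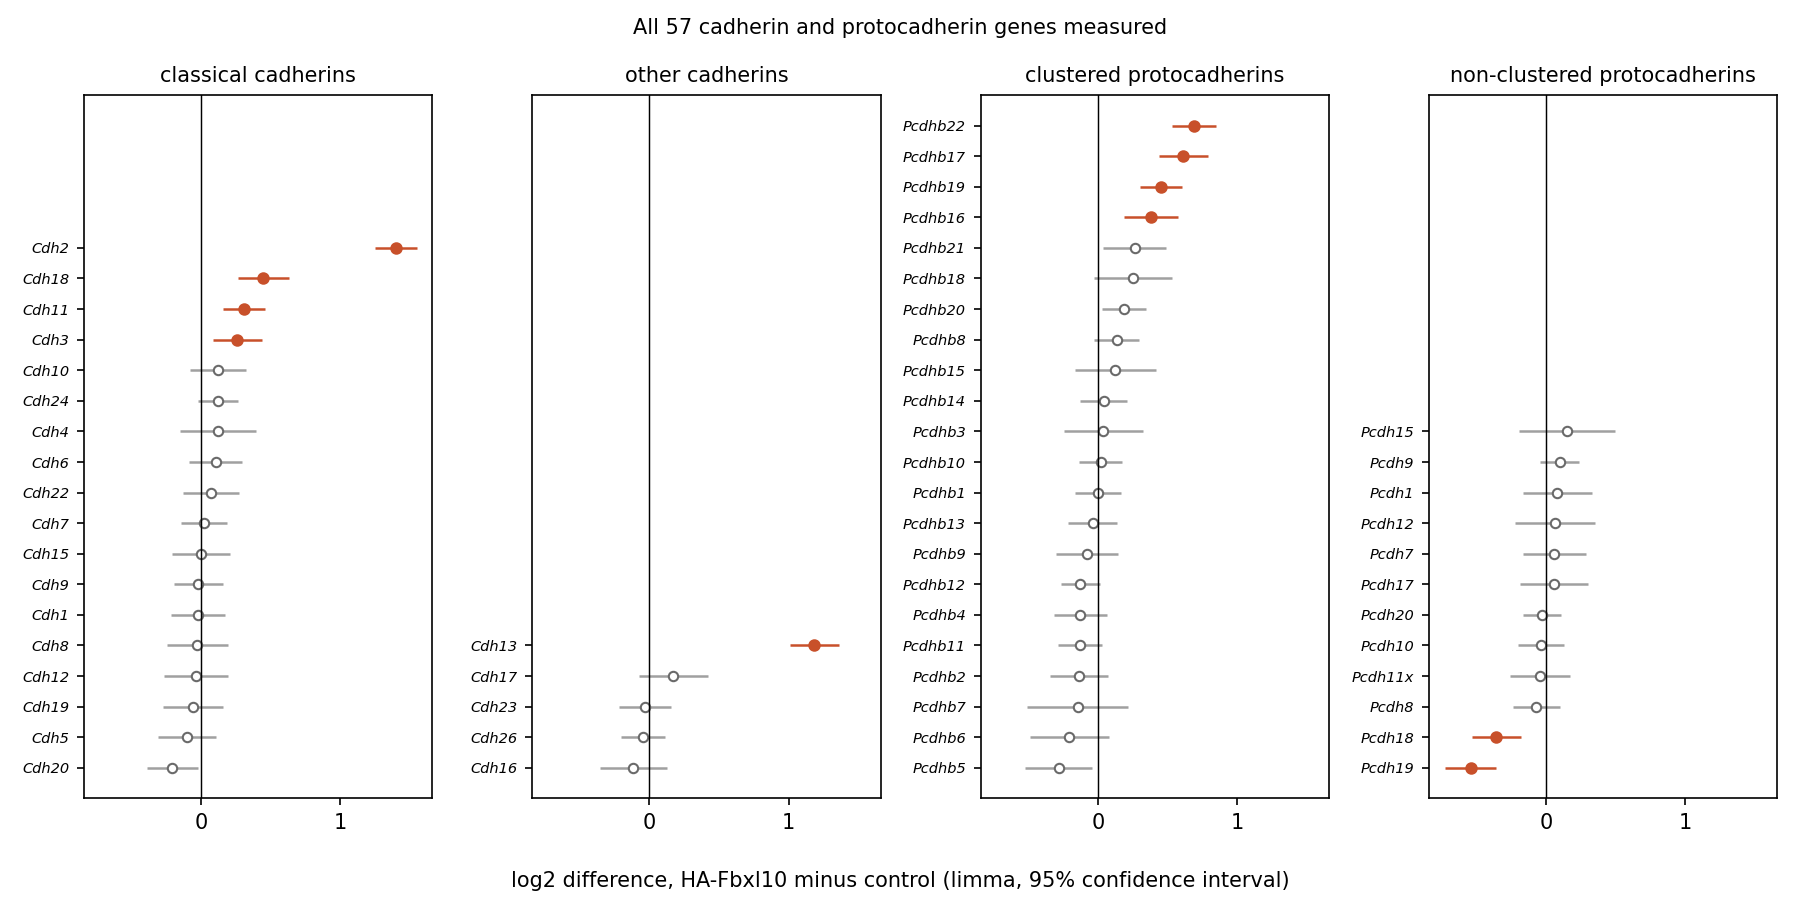
Log2 difference (HA-Fbxl10 minus control, 3 arrays each) with its 95% confidence interval for all 57 genes, 1 panel per subgroup. Filled points passed a limma adjusted p of 0.05 over all genes. Cdh2 (1.40) and Cdh13 (1.19) stand to the right of the other members, 4 beta protocadherins lie above 0, and Pcdh18 and Pcdh19 lie below it.

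Among classical cadherins, 4 of 18 rose and 0 fell, and the median difference was 0.05. At an unadjusted p under 0.05, limma had 4 higher and 1, Cdh20, lower, a share not above the 31.3% of all genes. Cdh2 encodes N-cadherin, the cadherin of neurons and mesenchymal cells. Its level was 9.50, 9.39 and 9.38 in control cells and 10.88, 10.79 and 10.81 in HA-Fbxl10 cells. Every HA-Fbxl10 array lay more than 1 log2 unit above every control array. The difference was 1.40 ± 0.07 (SE, limma adjusted p = 2.11e-06), a 2.64-fold rise from 9.43 ± 0.07 to 10.83 ± 0.04 (SD, n = 3 each). By the size of its difference Cdh2 stood at place 82 of 19936 genes.

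Cdh18 encodes a type II cadherin known mainly from brain. Its level was 7.65, 7.57 and 7.65 in control cells and 8.00, 8.24 and 7.98 in HA-Fbxl10 cells, with replicate 2 the highest of the latter. The difference was 0.45 ± 0.08 (SE, limma adjusted p = 0.00407), with no overlap between groups. A second probe set of Cdh18 moved the same way, from 7.49 ± 0.07 to 7.85 ± 0.16 (SD, n = 3 each), a difference of 0.36 ± 0.09 (SE, limma adjusted p = 0.0192 over all named probe sets).

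Cdh11 encodes OB-cadherin, a type II cadherin of fibroblasts and bone-forming cells. Its level was 10.24, 10.10 and 10.24 in control cells and 10.49, 10.55 and 10.45 in HA-Fbxl10 cells. The groups did not overlap and differed by 0.31 ± 0.07 (SE, limma adjusted p = 0.0104). Another 3 probe sets name Cdh11 together with 6820431F20Rik and 2610005L07Rik and were left out as shared. Their differences were 0.12, 0.10 and 0.12, none past the threshold (limma adjusted p of 0.195 to 0.311), and they cannot separate the 3 genes.

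Cdh3 encodes P-cadherin, a type I cadherin of basal epithelia and placenta. Its level was 8.50, 8.41 and 8.66 in control cells and 8.75, 8.85 and 8.75 in HA-Fbxl10 cells, so the nearest arrays of the groups were close but did not overlap. The difference was 0.26 ± 0.08 (SE, limma adjusted p = 0.0431). This call ended when any 1 array other than control replicate 3 was left out (adjusted p of 0.0856 to 0.136) and with the replicate number as a block (adjusted p = 0.0918).

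Cdh1, which encodes E-cadherin and is the next protein-coding gene after Cdh3 on chromosome 8, did not pass the test. Its level was 4.89, 4.89 and 4.69 in control cells and 4.84, 4.66 and 4.89 in HA-Fbxl10 cells, below the median gene on every array. The groups overlapped, and the difference was -0.03 with a 95% confidence interval of -0.22 to 0.17. The endothelial cadherin gene Cdh5 was at 4.03, 3.87 and 3.73 in control cells and 3.81, 3.86 and 3.65 in HA-Fbxl10 cells, a difference of -0.10 (interval -0.31 to 0.10). Cdh24, a type II cadherin gene above the median gene, was at 6.59 ± 0.06 and 6.71 ± 0.04 (SD, n = 3 each). Its 0.12 ± 0.06 (SE) missed the threshold (limma adjusted p = 0.236) although its groups did not overlap. Its other probe set differed by 0.02. The 14 classical members that did not pass the test had differences of -0.21 (Cdh20) to 0.12 and included the muscle cadherin gene Cdh15 (interval -0.21 to 0.21).

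**Figure D2:**
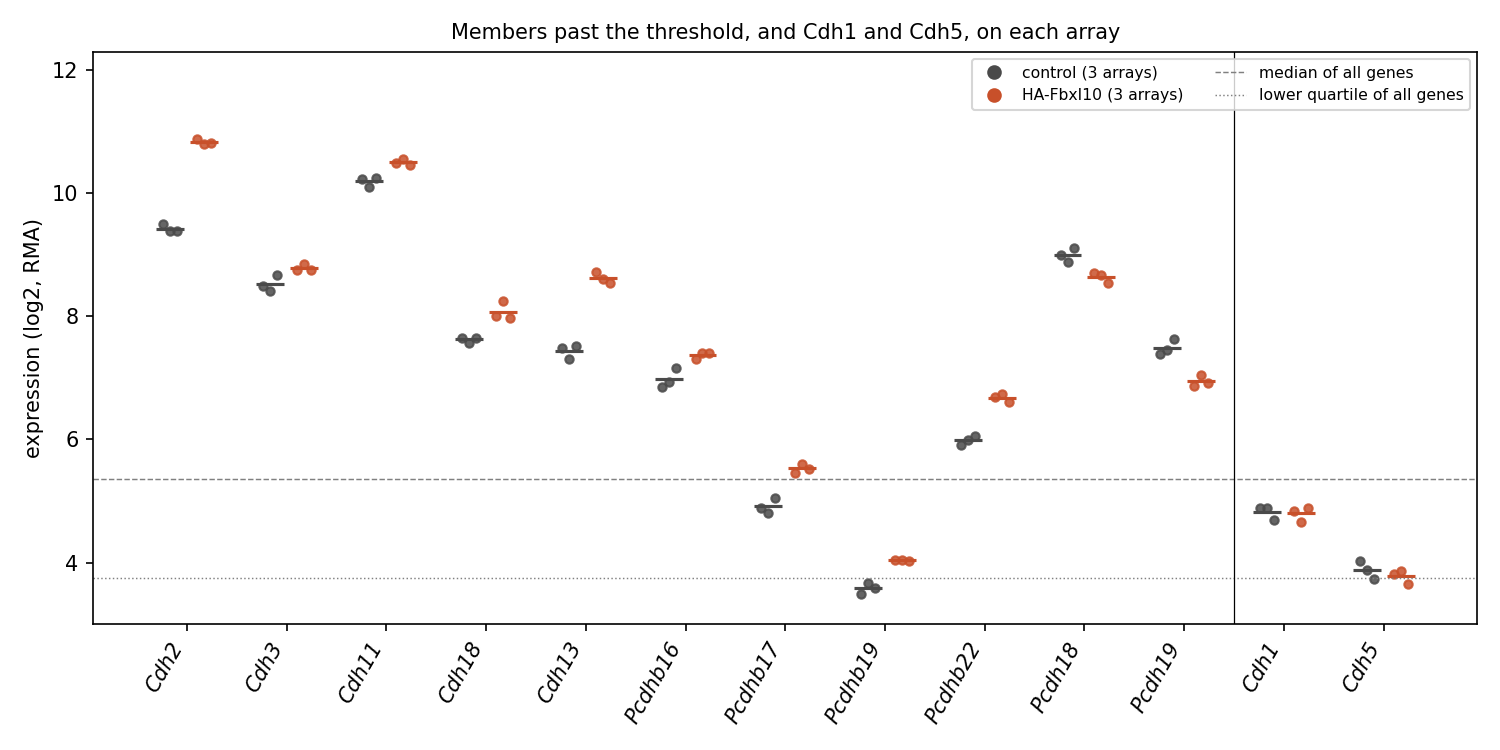
Log2 RMA level on each array for the 11 genes past the threshold and, right of the vertical line, for Cdh1 and Cdh5. Points are arrays, short bars are means of 3 arrays, and the dashed and dotted lines are the median (5.36) and lower quartile (3.75) of all genes. The 3 control and 3 HA-Fbxl10 points are apart for each of the 11 genes and intermixed for Cdh1 and Cdh5.

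Of the 5 other cadherins, 1 rose and 0 fell, with 1 at an unadjusted p under 0.05 in limma. Cdh13 encodes T-cadherin, which has no transmembrane part or catenin-binding tail and is held in the membrane by a lipid anchor. It is also known as a receptor for adiponectin. Its level was 7.49, 7.31 and 7.51 in control cells and 8.72, 8.61 and 8.54 in HA-Fbxl10 cells. The groups were far apart relative to their spread, with a difference of 1.19 ± 0.08 (SE, limma adjusted p = 1.65e-05), a 2.27-fold rise, at place 117 of all genes by size. Cdh17, the liver-intestine cadherin gene, overlapped between groups at 5.37 ± 0.22 and 5.54 ± 0.12 (SD, n = 3 each, interval of the difference -0.08 to 0.42). The kidney cadherin gene Cdh16, Cdh26 and Cdh23, whose product forms tip links in hair cells, had differences of -0.12 to -0.03.

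The clustered protocadherins measured were the 22 beta genes, of which 4 rose and 0 fell. At an unadjusted p under 0.05 limma had 6 higher and 1, Pcdhb5, lower, a share near the 31.3% of all genes. The beta genes form 1 row on chromosome 18, and the 4 that rose were the genes in places 16, 17, 19 and 22 of that row. Pcdhb22, the last of the row, was at 5.91, 5.99 and 6.05 in control cells and 6.68, 6.74 and 6.60 in HA-Fbxl10 cells. Its difference of 0.69 ± 0.07 (SE, limma adjusted p = 0.000162) is a 1.61-fold rise with no overlap. Pcdhb17 was at 4.89, 4.80 and 5.04 in control cells and 5.46, 5.60 and 5.53 in HA-Fbxl10 cells. It rose by 0.62 ± 0.08 (SE, limma adjusted p = 0.000591) and crossed the median gene's level.

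Pcdhb19 was at 3.49, 3.67 and 3.59 in control cells and 4.04, 4.04 and 4.02 in HA-Fbxl10 cells. Its control level lay below the lower quartile, so the size of its difference of 0.45 ± 0.07 (SE, limma adjusted p = 0.00127) is uncertain. Pcdhb16 was at 6.86, 6.94 and 7.17 in control cells and 7.31, 7.40 and 7.40 in HA-Fbxl10 cells. It rose by 0.38 ± 0.09 (SE, limma adjusted p = 0.0119), and control replicate 3 was the array nearest to the other group.

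The remaining genes of the same stretch had positive differences that did not pass the test. Pcdhb18 differed by 0.25 (95% confidence interval -0.03 to 0.53), Pcdhb20 by 0.19 (0.03 to 0.35, limma adjusted p = 0.0949) and Pcdhb21 by 0.26 (0.04 to 0.49, limma adjusted p = 0.1). Without control replicate 2, Pcdhb21 passed at 0.35 (limma adjusted p = 0.0397). Among the 15 genes from Pcdhb1 to Pcdhb15 0 were called by limma and 1 had an unadjusted p under 0.05. That gene was Pcdhb5, which overlapped between groups at 4.65, 4.82 and 5.02 against 4.41, 4.70 and 4.53. Its difference was -0.28 (limma adjusted p = 0.0989). The differences of these 15 genes ran from -0.28 to 0.13 with a median of -0.08. Those of the last 7 ran from 0.19 to 0.69 with a median of 0.38. The division after Pcdhb15 was chosen after the values were seen and was not tested. All 15 genes before it had mean levels below the median gene, 8 of them below the lower quartile, so small changes there may not be visible. Beta protocadherins are closely related in sequence, and no source used here says whether each probe set separates its gene from the others.

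**Figure D3:**
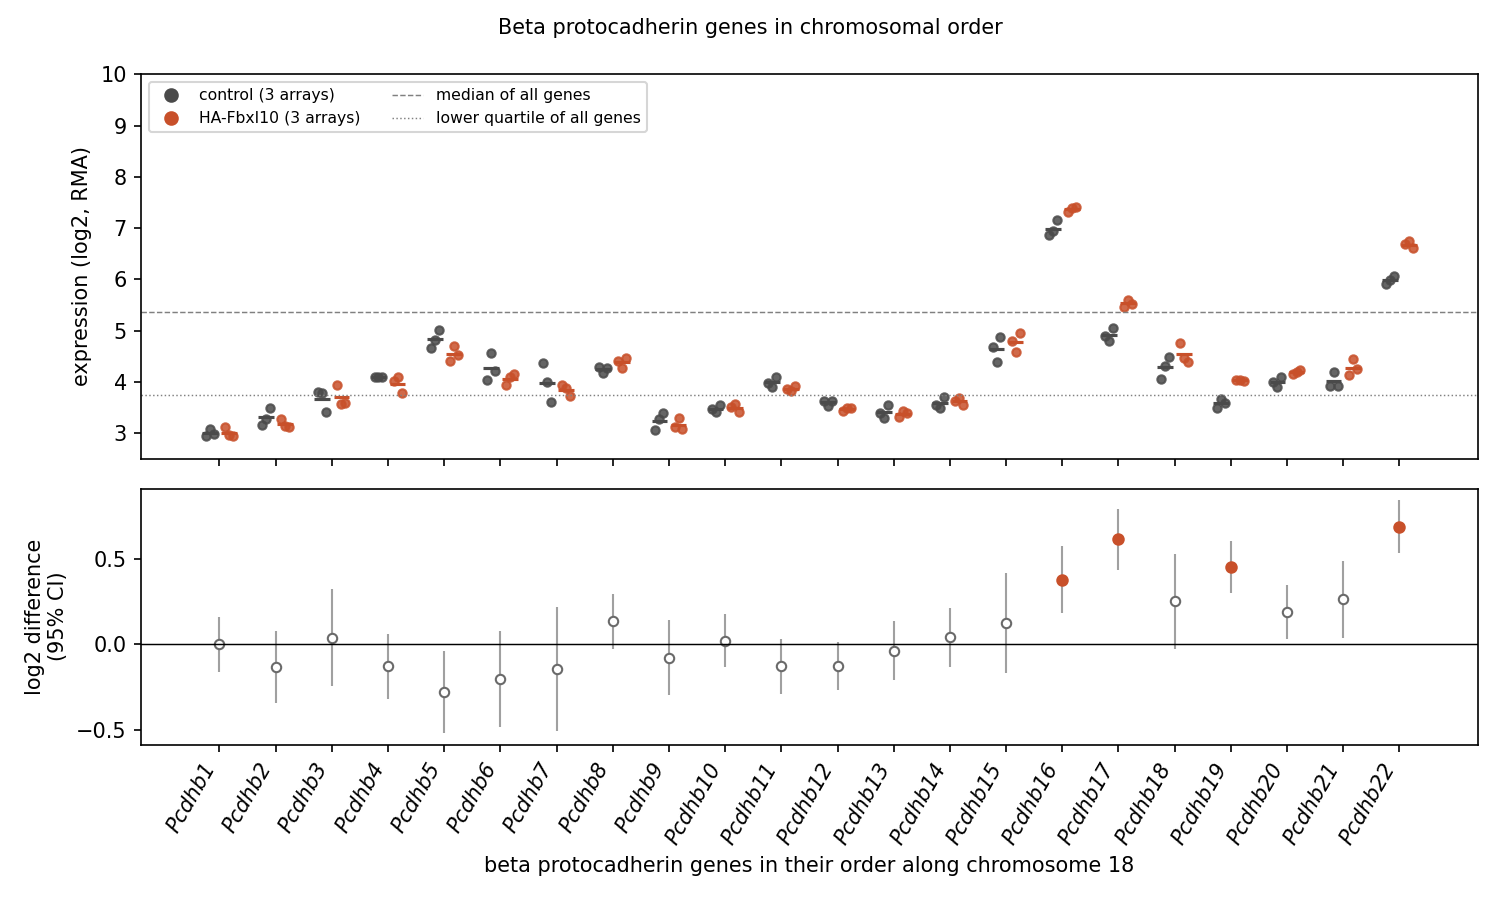
Upper panel, log2 RMA level of the 22 beta protocadherin genes on each of 3 control and 3 HA-Fbxl10 arrays, in their order along chromosome 18, with group means as short bars. Lower panel, the difference with its 95% confidence interval, filled where it passed the threshold. The 4 filled points lie at Pcdhb16, Pcdhb17, Pcdhb19 and Pcdhb22, with differences of 0.38 to 0.69.

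The alpha and gamma clusters could not be followed gene by gene. A single probe set names all 14 alpha genes at once and was left out as shared. It was at 3.51 ± 0.06 and 3.57 ± 0.11 (SD, n = 3 each), below the lower quartile, with a difference of 0.06 (limma adjusted p = 0.684). In the annotation used here no probe set names any of the 22 gamma genes listed in RefSeq, so they were not analysed. In all, 4 shared probe sets of the family were left out, and 57 of 93 family genes in RefSeq were measured alone.

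Of the 12 non-clustered protocadherins, 2 fell and 0 rose, which is 16.7% against 21.1% of all genes. At an unadjusted p under 0.05 limma had the same 2 lower and 0 higher. Pcdh19 encodes a delta-type protocadherin that can act together with N-cadherin and is mutated in an X-linked epilepsy. Its level was 7.39, 7.46 and 7.62 in control cells and 6.87, 7.05 and 6.92 in HA-Fbxl10 cells. It fell by 0.54 ± 0.08 on the log2 scale (SE, limma adjusted p = 0.00148), 1.46-fold, with no overlap. Pcdh18, also of the delta type, was at 8.998, 8.889 and 9.106 in control cells and 8.695, 8.674 and 8.547 in HA-Fbxl10 cells. It fell by 0.36 ± 0.08 on the log2 scale (SE, limma adjusted p = 0.0092), with no overlap. The other 10 had mean levels below the median gene, 5 of them below the lower quartile, and differences of -0.07 (Pcdh8) to 0.15 (Pcdh15). Pcdh15, a partner of Cdh23 in tip links, was at 4.89, 5.35 and 4.63 in control cells and 5.01 to 5.16 in HA-Fbxl10 cells, with control replicate 2 the highest array. Without that array its difference was 0.34 (limma adjusted p = 0.0439), so its result rests on 1 control array. Its other probe set differed by 0.02.

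Among chromosomes that hold members, the median difference of expressed genes ran from -0.23 on chromosome 3 to 0.17 on chromosome 5, so each changed gene was set beside its surroundings. The value used was the median difference of the 31 nearest expressed genes on the chromosome, family members left out, where expressed means above the median gene. Around Cdh2 it was 0.02, around Cdh13 it was 0.07 and around Cdh18 it was 0.07, all far from the genes' own 1.40, 1.19 and 0.45. Around Cdh11 it was 0.05 and around Cdh3 it was 0.11, against the genes' own 0.31 and 0.26. Around the beta protocadherins it was -0.12, opposite in sign to the 4 genes that rose, while the median of all expressed genes on chromosome 18 was 0.01. Around Pcdh19 it was 0.24, opposite to its fall of 0.54. Around Pcdh18 on chromosome 3 it was -0.34, close to the gene's own -0.36.

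A running median of 31 expressed genes in chromosomal order, with the gene and other family members included, was also removed, and 3 of the 11 calls then ended. It need not equal the median of the nearest genes, and for Cdh11 it was 0.11. For Pcdhb16 it was 0.02 and for Pcdhb22 -0.01, where the nearest genes gave -0.12. Pcdh18 went to -0.09 (limma adjusted p = 0.558), Cdh3 to 0.13 (adjusted p = 0.333) and Cdh11 to 0.19 (adjusted p = 0.0944). The same 3 calls ended when the median of each chromosome's expressed genes was removed, at -0.13, 0.14 and 0.19. Cdh3 and Cdh11 lie on chromosome 8, whose expressed genes had a median difference of 0.12. Pcdh19 moved from -0.54 to -0.74 and remained past the threshold under the running median. Pcdhb17 and Pcdhb19 have mean levels below the median gene and are not altered by either correction.

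**Figure D4:**
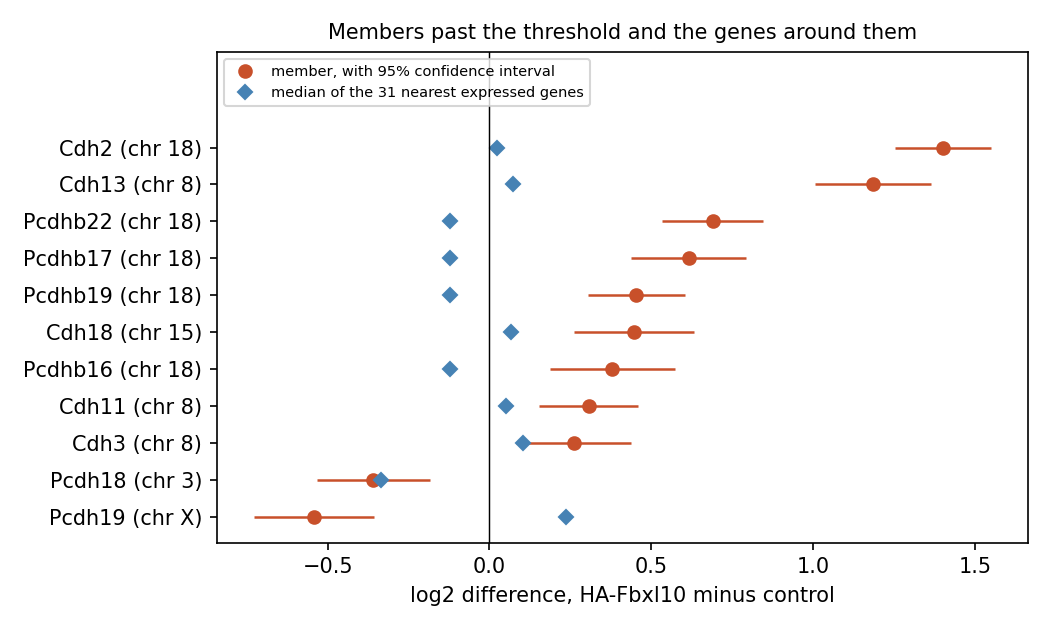
Log2 difference of the 11 genes past the threshold with 95% confidence intervals (circles), and the median difference of the 31 nearest expressed genes outside the family (diamonds). Circle and diamond nearly coincide for Pcdh18 (-0.36 and -0.34) and lie on opposite sides of 0 for Pcdh19 and the 4 beta protocadherins.

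The genes that cadherins work with changed in both directions. Over all genes 21.1% passed the threshold, and 37% of genes above the median gene did. Of 22 catenin and adherens junction genes, 4 rose and 4 fell (36.4%), with a median difference of 0.08 against -0.00427 over all genes. Of the 22, 17 lay above the median gene. Nectin2, an immunoglobulin-type adhesion receptor gene of adherens junctions, rose by 0.71 ± 0.08 and its relative Nectin1 rose by 0.61 ± 0.08 (SE, limma adjusted p = 0.000294 and 0.000586). With the running median removed, Nectin1 was at 0.37 and still passed (adjusted p = 0.0107). Of those that rose, Afdn lost its call with the running median removed (0.27, limma adjusted p = 0.0702). The plakoglobin gene Jup (-0.47), which links cadherins to the cytoskeleton, was among those that fell. Arvcf also fell (-0.23, limma adjusted p = 0.0344). Its call ended under quantile normalisation, with a variance trend and when any 1 array was left out (adjusted p of 0.0594 to 0.112). The core catenin genes did not pass the test, with differences of 0.18 for Ctnnb1, 0.01 for Ctnna1 and -0.13 for Ctnnd1. With a variance trend in limma, Ctnnb1 passed (adjusted p = 0.00153). Of 14 desmosomal genes measured, 0 rose and 1 fell in limma, against 0 and 3 at an unadjusted p under 0.05, where 31.3% of all genes lay. That gene was Perp, which encodes a p53-induced membrane protein of desmosomes and fell by 1.19 ± 0.08 (SE, limma adjusted p = 2.26e-05). Of 17 cadherin-related and atypical cadherin genes, 1 rose and 0 fell, with the same counts at an unadjusted p under 0.05. The 1 gene was Fat1, a giant cadherin known to bind actin regulators, which rose by 0.67 ± 0.10 (SE, limma adjusted p = 0.00144).

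Of 11 genes of proteases that can cleave cadherins, 3 rose and 3 fell (54.5%), with a median of -0.05. Of the 11, 8 lay above the median gene, where 37% of all genes passed the threshold. The gelatinase gene Mmp9 fell by 1.42 ± 0.09 and the gamma-secretase subunit gene Ncstn rose by 0.72 ± 0.07 (SE, limma adjusted p = 9.91e-06 and 0.000113). Adam10, the sheddase of N-cadherin, rose by 0.26 (limma adjusted p = 0.0182). This call ended under quantile normalisation (0.20, adjusted p = 0.0563), without control replicate 1, control replicate 3 or HA-Fbxl10 replicate 2 (adjusted p of 0.0532 to 0.0662), and with the running or the chromosome median removed (0.11 and 0.05, adjusted p = 0.36 and 0.715). Of 13 mesenchymal transcription factor genes, most known as repressors of E-cadherin, 2 rose and 2 fell (30.8%), with a median of -0.03. Foxc2 rose by 1.06 ± 0.10 and Zeb2 by 0.55 ± 0.08 (SE, limma adjusted p = 0.00011 and 0.00112). Snai1 (0.01), Snai2 (-0.03) and Twist1 (0.06) did not pass the test.

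Of 16 chromatin genes that act on protocadherin clusters, such as CTCF and cohesin genes, 4 rose and 0 fell, with a median of 0.13. At an unadjusted p under 0.05 limma had 8 higher and 1 lower, where 31.3% of all genes lay. Of the 16, 25% passed the adjusted threshold and 15 lay above the median gene, where 37% of all genes passed. Of the 9968 genes above the median gene, 5090 had an unadjusted p under 0.05 in limma. The cohesin regulator Pds5b rose by 0.51 ± 0.07 and the cohesin subunit Smc1a by 0.50 ± 0.06 (SE, limma adjusted p = 0.00105 and 0.000427). Smchd1, a silencer of the protocadherin clusters, rose by 0.36 (adjusted p = 0.00612). With the running median removed, 2 of the 16 passed in limma. Pds5b then went to 0.18 (adjusted p = 0.153), Pds5a to 0.11 (adjusted p = 0.392) and Smchd1 to 0.10 (adjusted p = 0.449), which ended these calls. Smc1a went to 0.29 (adjusted p = 0.0102) and kept its call. Rad21, not called before, passed at 0.22 (adjusted p = 0.0413). Ctcf itself differed by 0.14 (adjusted p = 0.159), and passed with a variance trend (adjusted p = 0.0464). Of 14 genes for cytoplasmic partners of protocadherins and the WAVE actin complex, 2 rose and 1 fell (21.4%), with a median of -0.08. Fez1 rose by 0.82 ± 0.13 and Wasf3 fell by 0.46 ± 0.09 (SE, limma adjusted p = 0.00211 and 0.00568).

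**Figure D5:**
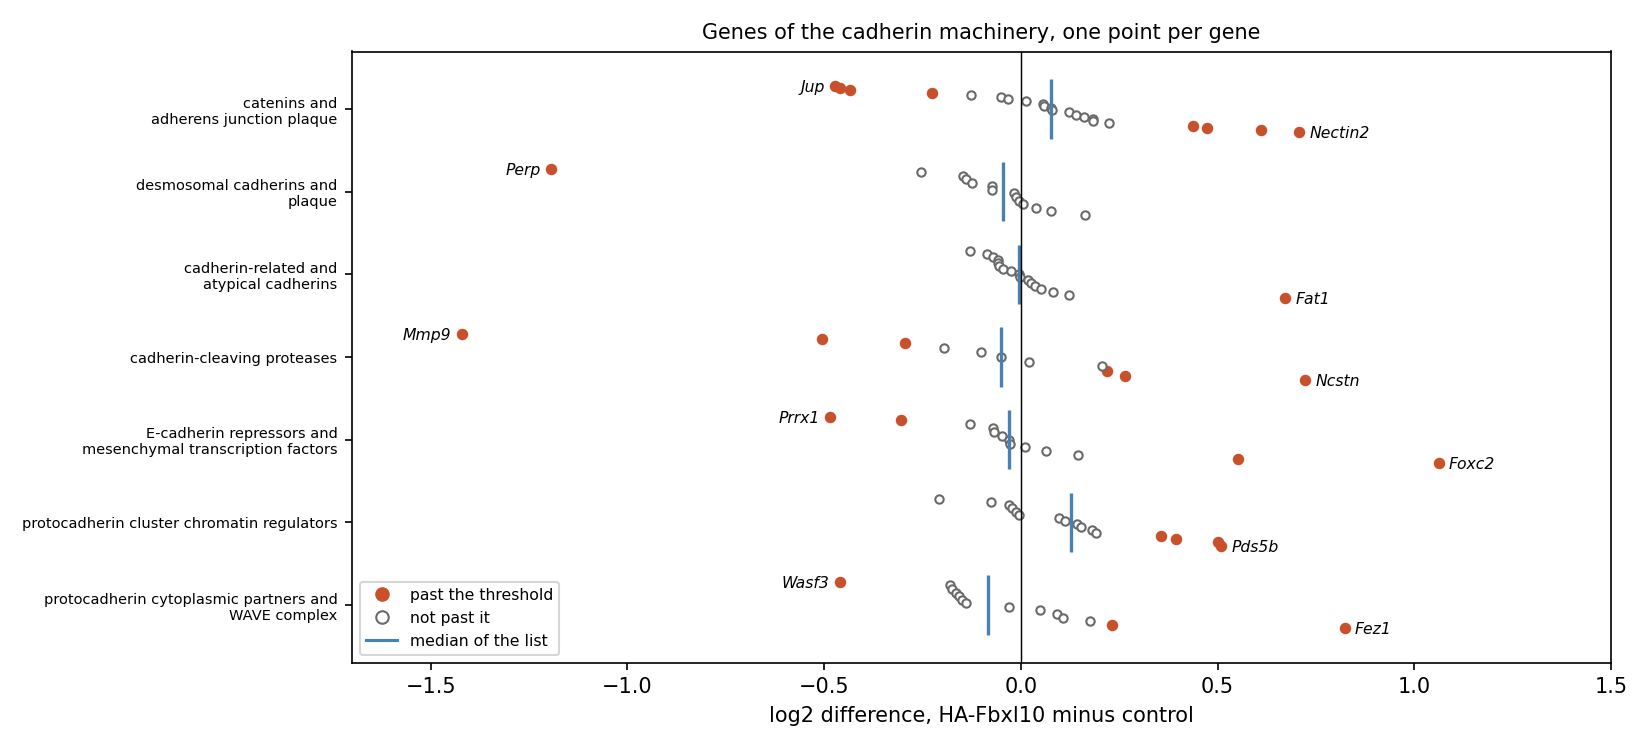
Log2 difference (HA-Fbxl10 minus control) of each gene in 7 lists of the cadherin machinery, 1 point per gene, filled where it passed a limma adjusted p of 0.05. Vertical bars are list medians, from -0.08 to 0.13. A named gene is the lowest or the highest of its list, and is named only where it passed the threshold.

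Markers of cell types that use particular cadherins were read beside these results. Over all genes 21.1% passed the threshold. Of 15 epithelial markers, 2 rose and 0 fell (3 and 0 at an unadjusted p under 0.05), with Krt19 higher by 0.71 and Krt7 by 0.35, and the list's mean level was 4.82 to 4.89 on control arrays and 4.82 to 4.94 on HA-Fbxl10 arrays. Of the 15, 4 lay above the median gene and 4 below the lower quartile of all genes, the latter including Epcam, Esrp1 and Ocln. Of 12 endothelial markers, 2 rose and 0 fell (2 and 0 unadjusted), Flt1 by 1.62 and Kdr by 0.51, with list means of 4.44 to 4.51 and 4.58 to 4.67. Of the 12, 2 lay above the median gene and 2 below the lower quartile, the latter including Pecam1. None of 11 neural and glial markers rose in limma (0 at an unadjusted p under 0.05 too) and 3 fell, led by Stmn2 (-0.70) and Tubb3 (-0.58), with list means of 5.02 to 5.15 and 4.90 to 4.99. The call of Stmn2 ended with the running median removed (-0.18, limma adjusted p = 0.128). Of 12 fibroblast markers 3 fell, led by Col3a1 (-0.79) and S100a4 (-0.64), with list means of 8.53 to 8.56 and 8.34 to 8.42. S100a4 was at -0.31 with the running median removed (limma adjusted p = 0.0289). No call was made by limma among 10 skeletal muscle and 8 macrophage markers (0 in each, also before adjustment of p). The part of other cell types in the cadherin results was not tested.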

How the data were processed

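The deposited log2 expression values were made by the authors with RMA (background correction, quantile normalisation, probe set summary), per the submitters' processing notes. Its version and settings are unknown here. Since RMA equalises the arrays' distributions, a general shift in expression would be invisible. Per the labels' protocols, 300 ng of RNA was used per array.

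Of 35556 probe sets, 21789 name 1 gene, 1621 several and 12146 none. Symbols were updated through Entrez identifiers (21698) or accessions (3) to RefSeq GRCm38.p6, and 88 were kept. The highest-mean single-gene probe set stood for each gene, and 4 members had more than 1. The test was limma 3.58.1 (lmFit, eBayes, two-sided, Benjamini-Hochberg over 19936 genes, no filter) under R 4.3.3, tested on simulated data. Confidence intervals are moderated 95% intervals for single genes. Figures used matplotlib 3.10.9.

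Members and lists were chosen with earlier results of these data known. Named genes were every member past the threshold or above the median gene, Cdh1, Cdh2, Cdh3, Cdh5, Cdh11 and Cdh13, the largest change per subgroup, and the 2 largest called changes per list. Others were named after their values were seen. Alternatives covered normalisation, filters, probe set choice, variance model, weights, replicate block, single arrays left out, a stricter threshold and chromosomal neighbours. Scan dates and array batches were not used here.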

Additional observations from a re-analysis of the deposited data

How the results depend on the processing

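Cdh2, Cdh13, Cdh18, Pcdhb17, Pcdhb22, Pcdh19 and Kdm2b kept their direction and their call under all 18 alternatives, with Cdh2 at 1.35 to 1.46, Cdh13 at 1.07 to 1.24 and Pcdh19 at -0.74 to -0.48. Pcdhb19 kept its call under 17 and was not among the genes when the dimmest 30% were left out. Removing the running or the chromosome median could not alter the differences of Pcdhb17 and Pcdhb19, which lie below the median gene. Pcdhb16 lost its call under an adjusted p of 0.01 alone. At that threshold 2536 genes passed and 2 classical cadherins, since Cdh3 and Cdh11 also missed it. With the running or the chromosome median removed, 2 classical cadherins, 1 non-clustered protocadherin and 1 falling member in all remained past the threshold. So did 3 cadherin-cleaving protease genes. With the running median removed, 2 desmosomal genes and 2 protocadherin cluster regulators passed. Both corrections subtract an estimate from expressed genes alone and carry none of its error. With a variance trend, robust or not, 2 desmosomal genes, 7 protocadherin cluster regulators and 5 protocadherin partner genes passed, and the cause was not tested. Leaving out 1 array at a time gave 1 to 2 desmosomal genes, 3208 to 3853 genes in all and 10 to 12 members. Deviations of same-numbered arrays correlated at 0.09, -0.28 and -0.09, and those of other pairs at -0.22 to 0.28. These values show no pairing by replicate number but, with 3 arrays a group, cannot exclude it. With the number as a block, 3397 genes passed, and 11 members did, with Pcdhb21 gained and Cdh3 lost. Array medians subtracted also added Pcdhb21, and leaving out control replicate 2 added Pcdh15 and Pcdhb21 and ended Cdh3.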
